A study of Mus musculus with 4 samples.

Results

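The transcripts described here encode the machinery with which a cell copies its DNA and divides. They are the 56 genes whose symbols in the deposited count table matched a list of cell-cycle genes, out of 52550 genes in the table. By role, 12 act in replication licensing, 7 at the replication fork and 3 in nucleotide supply, 8 are cyclins, 4 are cyclin-dependent kinases (CDKs) and 7 control entry into the cycle. Another 6 are mitotic kinases, 7 act at the kinetochore and spindle and 2 shape mitotic chromosomes. Of the 56, 55 passed the filter on low counts and were tested. Orc1, the largest subunit of the origin recognition complex, did not, with 27 and 10 counts in the input libraries and 5 and 0 in the pulldown libraries.

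Replication starts where the origin recognition complex, with Cdc6 and Cdt1, loads the Mcm2 to Mcm7 helicase on DNA before S phase, and geminin holds Cdt1 back afterwards. D-type cyclins with Cdk4 or Cdk6 phosphorylate the retinoblastoma protein and free E2F factors, which switch on S phase genes, while later cyclins, Aurora and Polo kinases and kinetochore proteins carry the cell through mitosis. In the newborn mouse retina the cells that still divide are progenitors, and they lie among neurons that have left the cycle.

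Retinas came from wild-type C57BL/6 mice at postnatal day 0 (P0), so that all libraries shared strain, genotype, age and tissue. The retinas were dissociated with papain, and in 2 biological replicates RNA was sequenced before (input) and after a pulldown with an antibody to YTHDF2 (RIP), a cytoplasmic reader protein of the RNA mark N6-methyladenosine (m6A). The comparison asks which transcripts the antibody recovered more or less than their share of the input. A pulldown with control IgG, named in the methods, is not analysed here, so recovery through YTHDF2 and recovery by the beads or the antibody cannot be told apart.

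Total counts were 39499994 and 36236531 in the input libraries, against 19530226 and 24903212 after the pulldown, of which between 2083594 and 4175459 fell on protein-coding genes. The 56 genes together took 44770 and 37145 counts in the inputs, against 26152 and 24848 in the RIP libraries. Among retinal markers, 15 of 15 progenitor genes passed the count filter, and 4 of them (Dapl1, Six3, Hes1 and Sox2) were lower in RIP by edgeR's adjusted p, a share of 26.7%, against 9.78% of all 13632 tested genes. The summed progenitor level was 382 and 287 FPKM in the inputs, against 118 and 88.7 FPKM in the RIP libraries, and Dapl1 alone made up 248 and 184 FPKM of the first and 6.69 and 3.86 FPKM of the second. Of 13 ganglion cell markers 3 (23.1%) were lower (Sncg, Nefm and Gap43), of 10 amacrine and horizontal cell markers 1 (10%) was lower (Onecut1), and of the 9 photoreceptor markers tested none passed in either direction, with 2 higher at an unadjusted p below 0.05 and 1 by DESeq2. The 16 markers of pigment epithelium, lens, vessels, microglia, glia and blood summed to between 3.65 and 4.02 FPKM in the inputs and to between 7.70 and 9.35 FPKM in the RIP libraries. Kdr, listed here with the vessel markers, alone gave 2.66 and 3.05 FPKM of the first and 8.35 and 6.41 FPKM of the second. The vessel markers Pecam1 and Cdh5 had at most 7 counts, so the level of Kdr is not read as vessel RNA. Rpe65, Tyr, Tyrp1, Cryaa and Crygs, which define pigment epithelium and lens, were at 0 in all 4 libraries, and 6 of the 16 genes were tested, with none past edgeR's adjusted threshold, 2 higher at an unadjusted p below 0.05 and 1 by DESeq2. The part of these markers in the results below was not tested.

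The letters GGACT are the core of the sequence in which m6A is most often written. They were searched for on the sense strand of the longest protein-coding transcript of each gene, and are shown here for the cell-cycle transcripts that later passed the test, because they are what an m6A reader could in principle meet. E2f1 was the transcript higher in RIP, and the 5 lower transcripts that hold the letters were Orc6, Gmnn, Gins1, Birc5 and Mki67. The letters stand in capitals, with 12 bases on each side, in coordinates of mouse build GRCm38.
E2f1, coding sequence in exon 4 of 7, minus strand, chr2:154562939-154562967: actgctttcggaGGACTccgacacccagc
E2f1, coding sequence in exon 6 of 7, minus strand, chr2:154561110-154561138: ctggggaggaccGGACTgcagactctggc
Orc6, coding sequence in exon 5 of 6, plus strand, chr8:85306285-85306313: aaaaaggagccaGGACTtgaaccaccagc
Orc6, 3′ UTR in exon 6 of 6, plus strand, chr8:85308178-85308206: atatgagtgctgGGACTtaaaccccagtc
Gmnn, 5′ UTR in exon 1 of 7, minus strand, chr13:24761652-24761680: acccgagtctggGGACTtgaaagggaccc
Gins1, coding sequence across the junction of exons 1 and 2, plus strand, between 150909788 and 150912803 of chromosome 2: tttaatgaggacGGACTcagacaagttct
Birc5, coding sequence at the stop codon in exon 3 of 3, plus strand, chr11:117852789-117852817: gattgagaataaGGACTgagcaaattctg
Mki67, coding sequence in exon 12 of 14, minus strand, chr7:135695698-135695726: aagcttggtaatGGACTcagttattgttg

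For Birc5 and Mki67, which hold 5 and 8 sites, the one nearest the stop codon is shown. Birc5 has 2 annotated transcripts, and its stop codon, sites and length here are those of the longest protein-coding one. Of the 3334 nt of that transcript 2936 are 3′ UTR, and which form the retina uses was not tested. Transcripts lower in RIP thus held the letters as well as the one that was higher, and Cdk4, also lower, held none. Of the 55 tested transcripts 53 (96.4%) had at least 1 site, against 93.1% of 11953 tested protein-coding genes. The median was 4 sites and 1.05 sites per kb, against 3 sites and 1.04 per kb in protein-coding genes, and 0.904 per kb in the 6 lower transcripts. Across the 55, Spearman's rho of the log2 fold change with sites per kb was 0.0787, and across protein-coding genes it was 0.0752, genes not being independent replicates. A match of letters does not show that the site is methylated or bound.

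The cell-cycle transcripts as a group passed edgeR's test at shares near those of all transcripts. By edgeR's quasi-likelihood test with Benjamini-Hochberg adjustment over 13632 genes, 1 of the 55 (1.82%) was higher in RIP at an adjusted p below 0.05, against 3.48% of all tested genes. The lower side held 6 (10.9%), against 9.78% of all. The lower transcripts were Orc6, Gmnn, Gins1, Cdk4, Birc5 and Mki67, and the remaining 48 passed in neither direction. DESeq2 called 1 of 56 higher (1.79%, against 4.94% of 14293 genes with an adjusted p) and 9 lower (16.1%, against 10.3%), adding Cdkn1b, Cenpe, Gins2 and Pcna to the lower side without Mki67. With the fold limit (log2 fold change of 1 or more and unadjusted p below 0.05), 1 transcript was higher, against 9.43% of all genes, and at the mirrored limit 11 (20%) were lower, against 17.2%, with Ccnb2, Cdkn1b, Cenpe, Gins2 and Pcna added to the 6. Both RIP libraries lay above both inputs for 10 transcripts (18.2%, against 29.6% of all genes) and below them for 20 (36.4%, against 31.3%). The median log2 fold change was -0.30, against -0.052 over all tested genes. Among the 11953 tested protein-coding genes, 3.81% were higher and 8.13% lower by edgeR's adjusted p, and 10.3% and 14.7% by the fold limit. Both RIP libraries lay above both inputs for 31.9% of them and below for 27.9%, with a median of 0.035. The cell-cycle transcripts thus lay further below that set than below all genes, a difference that was not tested.

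**Figure D1:**
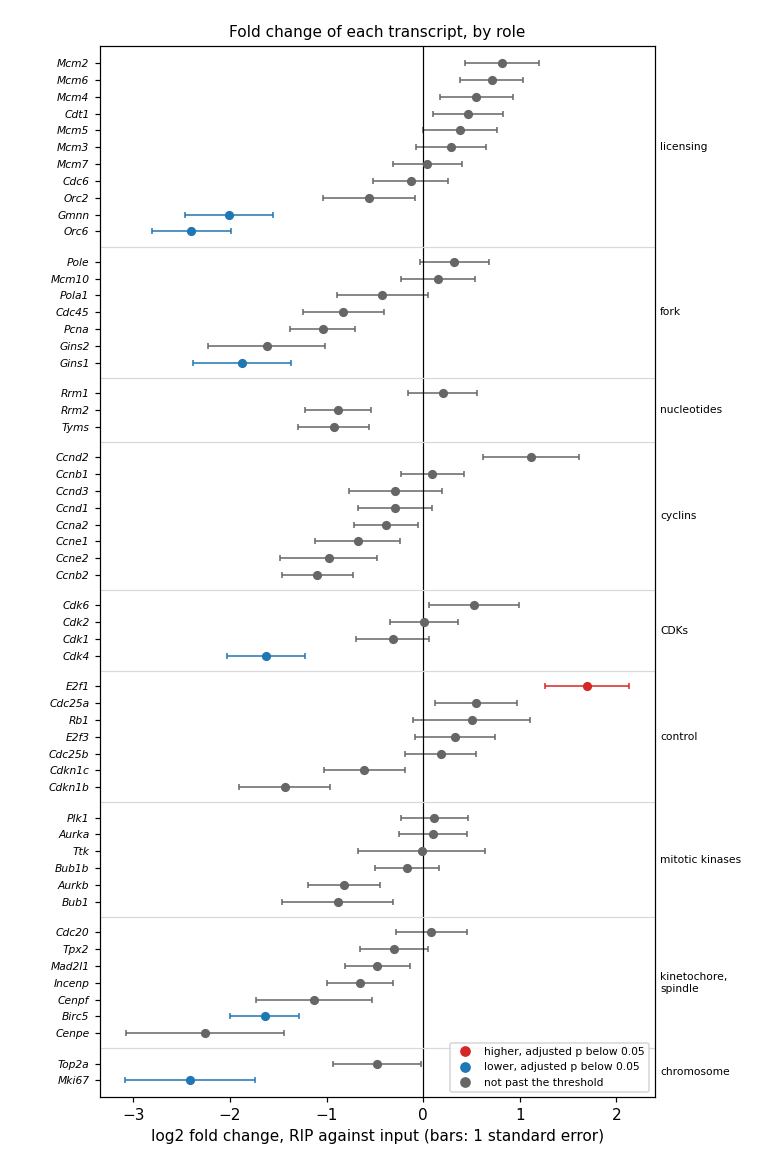
Log2 fold change of RIP against input (x axis) for each of the 55 tested cell-cycle transcripts, grouped by role, with bars of 1 standard error and 2 libraries per group. E2f1 stands highest at 1.70 and is the one transcript marked as higher, the 6 marked as lower lie between -2.41 and -1.63, and the other 48 are not past the threshold.

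Each of these calls leans on a spread that the model estimates across genes, since for 1 gene an exact permutation of 2 inputs and 2 RIP libraries gives a two-sided p of 0.333 at best. With 1 library left out the 7 kept their sign, E2f1 at 1.23 to 2.37, Orc6 at -2.45 to -2.24 and Mki67 at -3.16 to -0.81. Birc5 ran from -1.86 to -1.39, Cdk4 from -2.02 to -1.10, Gmnn from -2.55 to -1.48 and Gins1 from -2.53 to -1.31. In such a fit the lone library of a group is assumed to vary like the pair left. Whether the 7 passed then turned on which group lost a library, so passing there is given no weight.

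Of the licensing genes 2 of 11 (18.2%) were lower, against 9.78% of all tested genes, and none was higher, against 3.48%. The helicase subunits were among those that did not pass. In FPKM, which corrects for length, Mcm2 to Mcm7 had input means of 1.42 to 3.46 and RIP means of 2.48 to 4.24. Their log2 fold changes were all positive, from 0.044 for Mcm7 to 0.81 for Mcm2 with a median of 0.47, but none passed the test (edgeR adjusted p from 0.186 to 0.948), and none passed at an unadjusted p below 0.05 or by DESeq2. Without input 1 the set ran from 0.22 to 1.31, and without input 2 from -0.12 to 0.91. When trends on transcript length and GC content were taken out, the 6 subunits ran from -0.19 to 0.43. Of Mcm7, 37.6% of the 31-base words also occur in a pseudogene, so its reads could be split. The loader Cdt1 was at 0.46, its partner Cdc6 at -0.13 and the origin subunit Orc2 at -0.56, and none of the 3 passed.

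The origin subunit Orc6 stood apart from that set. It had 181 and 176 counts in the inputs, against 24 and 25 in the RIP libraries. Both RIP libraries were low and close to each other, and the groups did not overlap. In CPM, which puts counts on a common scaled library size, the level went from 5.28 ± 0.212 (SD, n = 2) to 0.995 ± 0.0623 (SD, n = 2), and the log2 fold change was -2.40 (SE 0.409, edgeR adjusted p = 0.00773), a 5.29-fold lower level. The ratio of RIP to input was alike in both replicates, at -2.43 and -2.23 on the log2 scale. Orc6, which spans bases 85299632 to 85308278 of chromosome 8 (plus strand), shares 171 bases with Vps35 on the other strand. The strand setting used in counting was not given in the sources used here, and Vps35 had 109 and 173 counts in the inputs, against 90 and 123 in the RIP libraries.

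Gmnn encodes geminin, the inhibitor of Cdt1. It had 224 and 245 counts in the inputs, against 28 and 56 in the RIP libraries, again without overlap, although the RIP libraries differed from each other. The level was 6.93 ± 0.298 CPM in the inputs, against 1.72 ± 0.862 CPM in RIP (SD, n = 2 each), with a log2 fold change of -2.01 (SE 0.459, edgeR adjusted p = 0.0247). Cdt1 and its inhibitor therefore stood in different proportion before and after the pulldown. The FPKM ratio of Cdt1 to Gmnn was 0.319 and 0.287 in the inputs, against 2.34 and 1.37 in the RIP libraries. With trends on length and GC content taken out, Gmnn was at -1.05 with an adjusted p of 0.111 by edgeR.

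**Figure D2:**
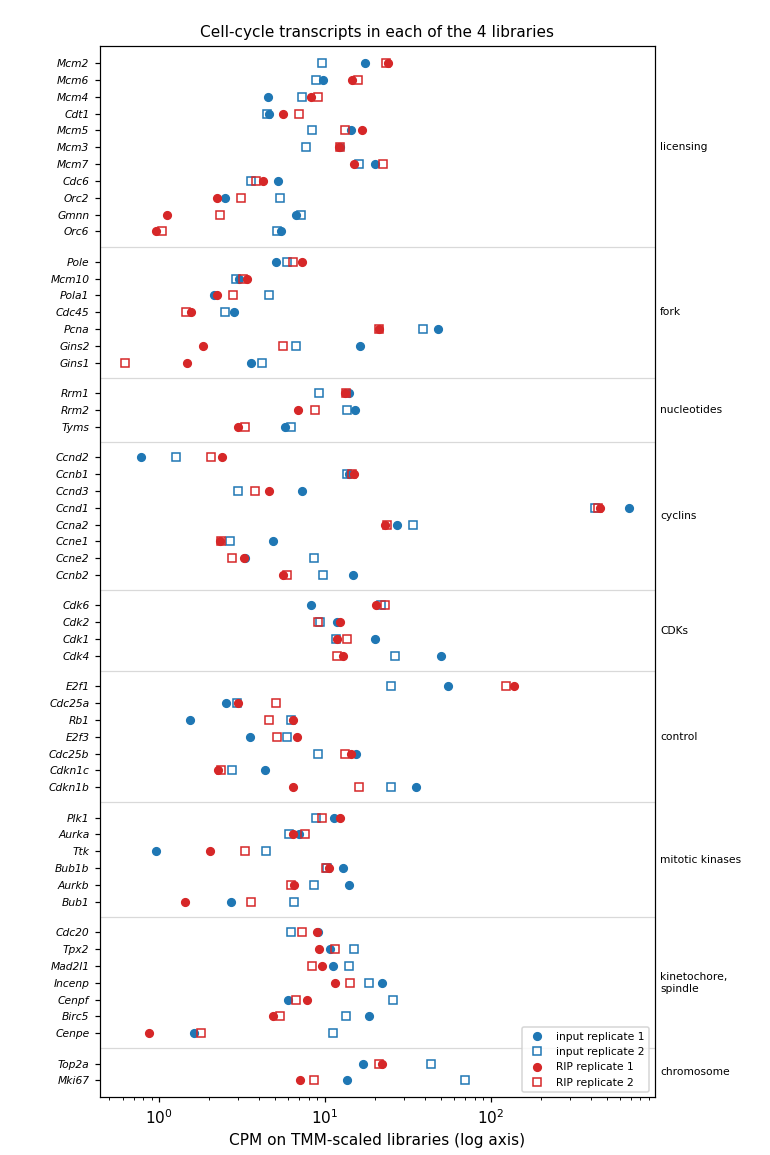
Level of each tested cell-cycle transcript in the 4 libraries (x axis: CPM on TMM-scaled libraries, log axis), grouped by role, with filled circles for replicate 1 and open squares for replicate 2. For Orc6 and Gmnn the RIP points lie to the left of the inputs, for E2f1 to the right, and for Mki67 and Cenpe the inputs lie far apart.

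At the replication fork 1 of 7 transcripts (14.3%) was lower by edgeR, against 9.78% of all tested genes. By DESeq2 3 of the 7 were lower, against 10.3% of all genes, and none was higher by either. Gins1, a subunit of the GINS complex that travels with the helicase, had 119 and 142 counts in the inputs, against 37 and 15 in the RIP libraries. The RIP libraries were both low but 1 was lower than the other, and the groups did not overlap. The log2 fold change was -1.88 (SE 0.504, edgeR adjusted p = 0.0430), or 3.67-fold lower, and it was -0.77 with an adjusted p of 0.284 once trends on length and GC content were taken out. Its partner Gins2 was at -1.62 and did not pass (edgeR adjusted p = 0.114), with replicate ratios of -3.10 and -0.25. With the replicate number as a block Gins2 passed, at an adjusted p of 0.0169 by edgeR.

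Pcna, the sliding clamp of the polymerases, was the second most abundant of these transcripts in the input at 15.4 ± 0.978 FPKM (SD, n = 2). It had 1601 and 1332 counts in the inputs, against 531 and 509 in the RIP libraries. Both RIP libraries were below both inputs, at a log2 fold change of -1.04 that did not pass (SE 0.334, edgeR adjusted p = 0.0753). It passed by DESeq2 (adjusted p = 0.0250), and by edgeR when genes needed 10 counts in every library (adjusted p = 0.0446). A pseudogene, Pcna-ps2, shares 38.0% of its 31-base words. The helicase cofactor Cdc45 was at -0.83, the polymerase subunits Pola1 and Pole at -0.42 and 0.32 and the initiation factor Mcm10 at 0.15. Of the nucleotide enzymes, thymidylate synthase (Tyms) and the ribonucleotide reductase subunit Rrm2 had both RIP libraries below both inputs at -0.93 and -0.88. That placement held for 31.3% of all tested genes. Rrm1, the other subunit, was at 0.20 with overlapping groups. None of these passed, although Tyms and Rrm2 had an unadjusted p of 0.0351 and 0.0303 by edgeR, and DESeq2 called neither.

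Cyclin D1 dominated the set. Ccnd1, the D-type cyclin of retinal progenitors, had 22852 and 14550 counts in the inputs, against 11584 and 10704 in the RIP libraries, and took 51.0% and 39.2% of all cell-cycle counts in the inputs, against 44.3% and 43.1% in RIP. Its level was 99.4 ± 24.8 FPKM in the inputs, against 99.9 ± 22.6 FPKM in RIP (SD, n = 2 each), several times that of Pcna, with no overlap between the 2 genes. In bulk retina, fewer cells of a type and less RNA per cell cannot be told apart in such a level. The log2 fold change of Ccnd1 was -0.30 (SE 0.384, edgeR adjusted p = 0.654), with replicate ratios of -0.58 and 0.070.

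The next transcripts in the order of input FPKM were E2f1 (14.1 and 7.26), Cdk4 (12.4 and 7.41), Ccnb2 (7.77 and 5.82) and Ccna2 (5.32 and 7.53). Neighbors in this stretch overlapped between the 2 inputs, so their order is not resolved. Without Ccnd1 the other 55 genes made up 0.536% and 0.541% of protein-coding counts in the inputs, against 0.661% and 0.679% in RIP. Most of that difference was E2f1, and the 54 genes left without it made up 0.491% and 0.520%, against 0.504% and 0.536%.

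The other D-type cyclins were scarce. Ccnd2 had 26 and 43 counts in the inputs, against 60 and 49 in the RIP libraries. Both RIP libraries lay above both inputs, at a log2 fold change of 1.12 that did not pass (SE 0.494, edgeR adjusted p = 0.172). Ccnd3 had 242 and 102 counts in the inputs, against 116 and 91 in RIP, with overlapping groups and a log2 fold change of -0.29. The FPKM ratio of Ccnd1 to Ccnd2 lay between 693 and 1772 in the inputs and between 396 and 449 in RIP.

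Of the 8 cyclins none passed edgeR's adjusted test, against 3.48% of all tested genes higher and 9.78% lower. None passed by DESeq2, against 4.94% and 10.3%. By the fold limit 1 (12.5%), Ccnb2, was lower, against 17.2% of all tested genes. It was also the only cyclin with an unadjusted p below 0.05 by edgeR. Among the cyclins of S phase and mitosis Ccnb2 was the lowest, at -1.10 (edgeR adjusted p = 0.0845), with both RIP libraries below both inputs. Ccne2, Ccne1 and Ccna2 were at -0.98, -0.68 and -0.38, and Ccnb1, of which 46.9% of the 31-base words occur in other genes, was at 0.097. The mitotic cyclins Ccnb1 and Ccnb2 thus had an FPKM ratio of 0.342 and 0.503 in the inputs, against 0.979 and 0.889 in RIP, without overlap.

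Of the 4 kinases, Cdk4, a partner of the D-type cyclins, was lower in RIP. It had 1666 and 909 counts in the inputs, against 326 and 284 in the RIP libraries. The inputs differed from each other, yet both lay above the RIP libraries. The level was 38.2 ± 16.6 CPM in the inputs, against 12.4 ± 0.788 CPM in RIP (SD, n = 2 each), with a log2 fold change of -1.63 (SE 0.402, edgeR adjusted p = 0.0325), or 3.09-fold lower. Cdk4 overlaps Tspan31 by 641 bases on the other strand, and Tspan31 itself had 361 and 251 counts in the inputs, against 117 and 133 in RIP.

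Cdk6, the alternative partner, did not share this. It had 273 and 744 counts in the inputs, against 509 and 553 in the RIP libraries, with overlapping groups and a log2 fold change of 0.53 that did not pass (SE 0.466, edgeR adjusted p = 0.486). The FPKM ratio of Cdk4 to Cdk6 was 26.5 and 5.28 in the inputs, against 2.76 and 2.20 in RIP. The inputs therefore disagreed on this ratio by more than the RIP libraries did, though both were above them. Cdk2 and Cdk1, the kinases of S phase and mitosis, were at 0.0087 and -0.32 with overlapping groups.

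Among the genes that control entry into the cycle, E2f1 was higher in RIP. E2f1 encodes a transcription factor that activates S phase genes and is held by the retinoblastoma protein. It had 1844 and 864 counts in the inputs, against 3462 and 2982 in the RIP libraries. The inputs differed from each other, and both RIP libraries lay above both. The level was 40.2 ± 21.3 CPM in the inputs, against 131 ± 9.37 CPM in RIP (SD, n = 2 each), with a log2 fold change of 1.70 (SE 0.436, edgeR adjusted p = 0.0371), or 3.25-fold higher. That placed E2f1 at percentile 97.2 of all tested genes. The gene spans bases 154559407 to 154569892 of chromosome 2 (minus strand) and overlaps no other annotated gene. The ratio of RIP to input was 1.31 in replicate 1 and 2.30 in replicate 2 on the log2 scale.

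The paralog E2f3 and Rb1, which encodes the retinoblastoma protein, did not pass. E2f3 had 118 and 202 counts in the inputs, against 170 and 123 in RIP, and Rb1 had 51 and 215 in the inputs, against 162 and 111 in RIP. On the CPM scale RIP 1 lay above both inputs in both genes and RIP 2 lay between them, so the groups overlapped. Their log2 fold changes were 0.33 and 0.50, and the replicate ratios of Rb1 had opposite signs, at 2.02 and -0.44. The FPKM ratio of E2f1 to E2f3 was 27.0 and 7.42 in the inputs, against 35.3 and 42.3 in RIP.

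The CDK inhibitors, which take progenitors out of the cycle, were both on the lower side. Cdkn1b, encoding p27Kip1, had 1178 and 864 counts in the inputs, against 162 and 384 in the RIP libraries. The groups did not overlap, but the RIP libraries were far apart. The log2 fold change was -1.43 (SE 0.471, edgeR adjusted p = 0.0804), and with the replicate number as a block it was -1.55 and passed, at an adjusted p of 0.0230 by edgeR. Cdkn1c had 144 and 94 counts in the inputs, against 57 in each RIP library, at -0.61 without passing. The CDK-activating phosphatases Cdc25a and Cdc25b were at 0.55 and 0.18.

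Of the mitotic kinases 0 of 6 passed in either direction, against 3.48% higher and 9.78% lower among all tested genes. None did at an unadjusted p below 0.05 or by DESeq2. Plk1, Aurka, Ttk and Bub1b lay between -0.17 and 0.12, though Ttk was at 1.45 without input 2. Aurkb and the checkpoint kinase Bub1 were at -0.82 and -0.88. Of the 7 kinetochore and spindle genes, Cdc20, the activator of the anaphase-promoting complex, was at 0.083, and Tpx2, Mad2l1 and Incenp lay between -0.65 and -0.30.

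Birc5, which encodes survivin, the partner of Aurora B and Incenp in the chromosomal passenger complex, was lower in RIP. It had 614 and 460 counts in the inputs, against 122 and 129 in the RIP libraries. The RIP libraries were close to each other and well below both inputs. The level was 15.9 ± 3.54 CPM in the inputs, against 5.10 ± 0.373 CPM in RIP (SD, n = 2 each), with a log2 fold change of -1.64 (SE 0.357, edgeR adjusted p = 0.0209), or 3.12-fold lower. Its partners Aurkb and Incenp also had both RIP libraries below both inputs, as had 31.3% of all tested genes. Neither of the 2 passed (edgeR adjusted p = 0.183 and 0.233).

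Mki67, encoding the Ki-67 protein that coats mitotic chromosomes, was also lower, by an amount that varied with the input library. It had 453 and 2388 counts in the inputs, against 177 and 207 in the RIP libraries. The RIP libraries were alike, and input 2 stood far above input 1. The level was 41.6 ± 39.6 CPM in the inputs, against 7.81 ± 1.12 CPM in RIP (SD, n = 2 each), with a log2 fold change of -2.41 (SE 0.671, edgeR adjusted p = 0.0485). Without input 1 it was -3.16 and without input 2 it was -0.81. DESeq2 gave the same size at an adjusted p of 0.111.

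The kinetochore proteins Cenpe and Cenpf and topoisomerase II alpha (Top2a), picked here for their inputs after their values were seen, had a like gap between the inputs. Cenpe had 54 and 382 counts in the inputs, against 22 and 43 in RIP, Cenpf had 199 and 887 in the inputs, against 197 and 161 in RIP, and Top2a had 566 and 1487 in the inputs, against 557 and 510 in RIP. In each, input 2 was the highest library and input 1 was near one or both RIP libraries. Their log2 fold changes were -2.26, -1.13 and -0.48, and none passed (edgeR adjusted p = 0.105, 0.243 and 0.525). Cenpe passed with the replicate number as a block, at -1.83 with an adjusted p of 0.00902 by edgeR, and without input 2 it was at -0.29 and Cenpf at 0.27.

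**Figure D3:**
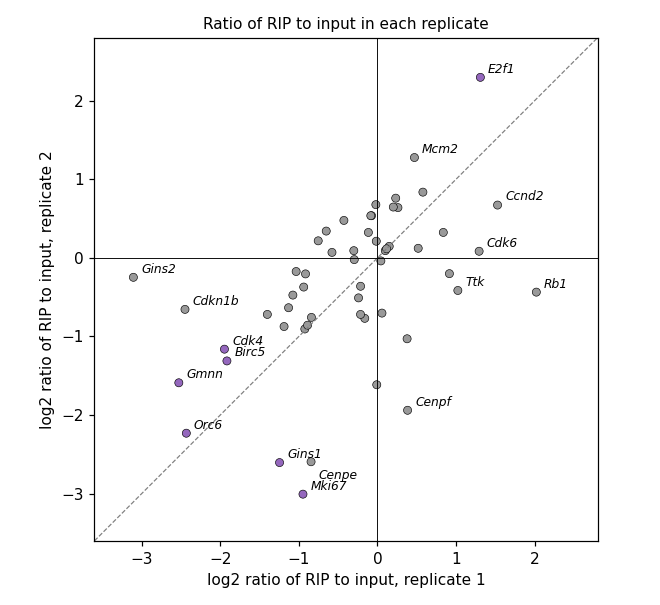
Log2 ratio of RIP to input in replicate 1 (x axis) and replicate 2 (y axis) for the 55 tested cell-cycle transcripts, with the 7 past the adjusted threshold in purple and the dashed line marking equal ratios. Orc6 lies near the line at -2.43 and -2.23, whereas Mki67 is at -0.95 and -3.01 and Rb1 at 2.02 and -0.44.

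Taken by replicate, the ratios had the same sign in 38 of 55 transcripts. Their Pearson r between replicates was 0.499 and Spearman's rho 0.554 across the 55, which share the 4 libraries. Inputs disagreed more often than RIP libraries. The inputs were over 2-fold apart in 14 of 55 transcripts, with input 2 the higher in 11 of these, and the RIP libraries in 5. Whether these counts are particular to the cell-cycle set or shared by all tested genes was not tested.

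The gap between the inputs ran with base composition. The difference of input 2 minus input 1 on the log2 scale had a Pearson r of -0.681 and a Spearman's rho of -0.716 with the GC content of the longest coding transcript across the 55, against -0.576 and -0.601 across 11953 protein-coding genes. Between the RIP libraries the values were -0.122 and -0.146. Among the 27 transcripts with 36.3% to 47.8% GC, input 2 was the higher in 18, with a median difference of 0.47. Among the 28 with 48.7% to 59.4% GC it was the higher in 4, with a median of -0.53. The ratio of RIP to input contains the input, so a gap between the inputs enters it by construction. In the 27 its median was -0.21 in replicate 1 and -0.70 in replicate 2, and in the 28 it was -0.20 and 0.10. The largest gaps toward input 2 were those of Cenpe (2.73), Mki67 (2.35), Ttk (2.12), Cenpf (2.10) and Rb1 (1.99), and the largest toward input 1 were those of Gins2 (-1.27), Ccnd3 (-1.27) and E2f1 (-1.13). The part of base composition in these gaps was not tested beyond the fit with its trend taken out.

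**Figure D4:**
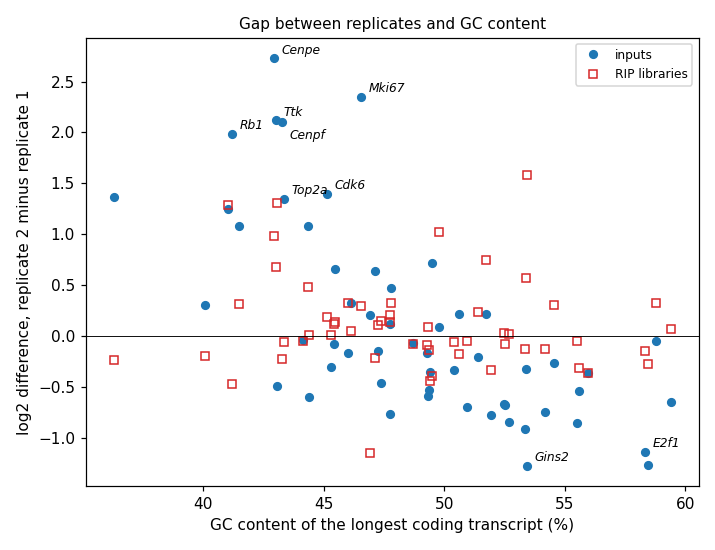
Log2 difference of replicate 2 minus replicate 1 (y axis) against the GC content of the longest coding transcript in percent (x axis), for the inputs (filled circles) and the RIP libraries (open squares) of the 55 tested cell-cycle transcripts. The inputs slope downward, from 2.73 for Cenpe to -1.13 for E2f1, and the RIP libraries show little slope.

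Several of the lower transcripts were short. The 3 shortest cell-cycle transcripts were Gins1 (1087 nt), Gmnn (1127 nt) and Orc6 (1466 nt), and all 3 were lower in RIP. Next in length came Pcna (1518 nt) and Ccnb2 (1531 nt), lower by the fold limit but not by adjusted p in the main edgeR fit. Pcna passed by DESeq2. Of the 5 cell-cycle transcripts up to 1600 nt, 3 (60.0%) were lower by adjusted p, with a median log2 fold change of -1.88. Of 1700 protein-coding genes of that length, 35.5% were lower, with a median of -1.27. From 1600 to 2500 nt 1 of 13 (7.69%) was lower, Cdk4, against 8.82% of 2165 genes, and from 2500 to 4000 nt 1 of 20 (5%) was lower, Birc5, against 3.66% of 3526.

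Among long transcripts, in the fit to all libraries, the medians of cell-cycle genes and of all coding genes lay on opposite sides of 0. Over 4000 nt the 17 cell-cycle transcripts had a median log2 fold change of -0.30, with 1 lower (Mki67) and none higher, while the 4562 protein-coding genes of that length had a median of 0.45, with 1.07% lower and 7.04% higher. By replicate, some of these long cell-cycle transcripts changed sign. Rb1 (2.02 and -0.44), E2f3 (0.92 and -0.20) and Pola1 (0.058 and -0.70) had a positive ratio in replicate 1 only. So had Cenpf (0.38 and -1.94) and Top2a (0.38 and -1.03). Cdc6 (-0.30 and 0.092) and Cdk1 (-0.75 and 0.22) had one in replicate 2 only. Whether the negative median holds in each replicate was not tested. Spearman's rho of the log2 fold change with length was 0.228 across the 55 and 0.487 across protein-coding genes. This difference was not tested, since the genes were chosen with results known and are not independent. With trends on length and GC content taken out, 9 of the 55 transcripts were lower, against 10.3% of 13619 genes. Among the 9 were Orc6 (-1.67), Cdk4 (-1.42), Birc5 (-1.85) and Mki67 (-2.98). E2f1 was still the 1 higher transcript, at 1.46, against 4.16% of genes higher. Gmnn and Gins1 were not among the 9, and Cenpe, Cenpf, Gins2, Incenp and Tyms were.

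**Figure D5:**
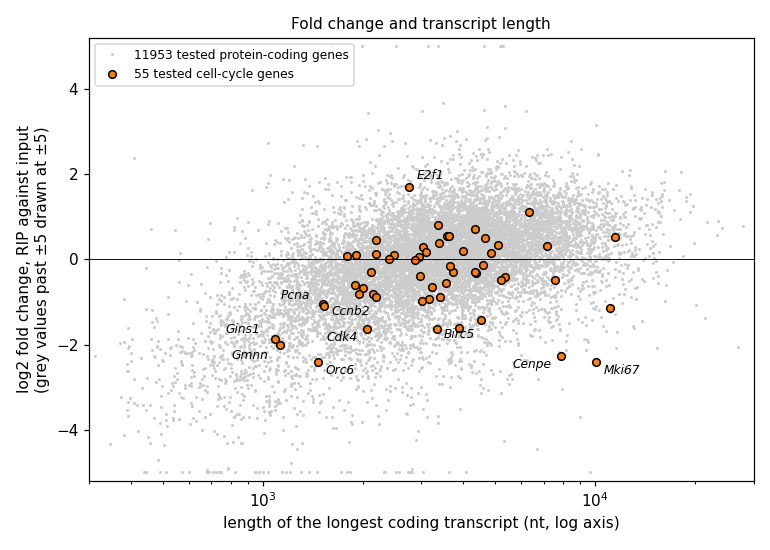
Log2 fold change of RIP against input (y axis) against the length of the longest coding transcript in nucleotides (x axis, log scale), for the 55 tested cell-cycle transcripts (orange) over 11953 tested protein-coding genes (grey, drawn at ±5 where they lie past it). Gins1, Gmnn and Orc6 sit at the short end among lower genes, and Cenpe and Mki67 sit at the long end below most genes of their length.

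Further genes of the same processes were set beside these, against 3.48% higher and 9.78% lower among all tested genes. Of 46 other replication genes, 1 (2.17%) was higher and 5 (10.9%) were lower by adjusted p, with a median log2 fold change of -0.44. The higher one was Wdhd1, which tethers polymerase alpha to the helicase, with 108 and 209 counts in the inputs, against 365 and 318 in RIP (log2 fold change 1.57, edgeR adjusted p = 0.0378). The lower ones included the single-strand binding subunit Rpa3 (-2.54), the dUTPase Dut (-1.55) and the fork protection factor Tipin (-1.44).

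Of 68 other mitosis genes none was higher by edgeR's adjusted p (5 at an unadjusted p below 0.05, 1 by DESeq2) and 5 (7.35%) were lower, with a median of -0.32. Ube2c, the ubiquitin-conjugating enzyme of the anaphase-promoting complex, had 2578 and 1266 counts in the inputs, against 151 and 113 in RIP, at a log2 fold change of -3.42 (SE 0.463, edgeR adjusted p = 0.00289). Cenpp had 44 and 56 counts in the inputs, against 0 in both RIP libraries, which is at least 12.1-fold lower when 3 counts per library are taken as the floor. The cohesin subunit Smc1a was at -2.25, with inputs of 180 and 784 counts, and the centromeric histone Cenpa was at -1.51. Of 32 other genes of cycle control none was higher by edgeR's adjusted p (3 at an unadjusted p below 0.05, 1 by DESeq2) and 1 (3.12%) was lower, Cks1b, a small CDK-binding protein, with 512 and 392 counts in the inputs, against 42 and 50 in RIP (log2 fold change -2.84, edgeR adjusted p = 0.00317). The median of that list was -0.0085.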

How the data were processed

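RNA of P0 wild-type C57BL/6 retina was measured in 2 input and 2 anti-YTHDF2 RIP libraries from a stranded library kit. The authors deposited raw counts per gene (whole numbers, not pooled) and FPKM values, scaled by the authors for gene length and library size. The submitters' processing notes name STAR 2.5, HTSeq and GRCm38, and the annotation and counting settings are not given in the sources used here. Sample labels gave the groups and the replicate numbers. Replicates are 2 biological replicates per the study. The p-values set the difference between groups against the spread between these libraries, as the model estimates it across genes.

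The 56 members were matched by symbol. The members and the other gene lists were chosen with earlier results of these data known. Counts were tested in R 4.3.3 with edgeR 4.0.16 (filterByExpr with minimum count 10 and minimum total 15, TMM factors of 0.845 and 0.948 for inputs and 1.29 and 0.966 for RIP, glmQLFit, glmQLFTest, Benjamini-Hochberg over 13632 genes). A fold change is therefore relative to the bulk of transcripts. CPM used the TMM-scaled library sizes, and standard errors came from the fold change and its F statistic. Counts in all 4 libraries are given for members past the adjusted threshold, the members of highest input FPKM and the families of cyclin D, Cdk4 and Cdk6, Cdkn1b and Cdkn1c, and E2f1, E2f3 and Rb1. Other genes are named where past the adjusted threshold, at most 4 in each direction per list. An item that this rule would name is not reported here.

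The design text gives each replicate an input and a pulldown, and the number was read as a shared replicate on that basis alone. The difference between inputs and that between RIP libraries, replicate 2 minus 1, had a Pearson r of -0.0282 over tested genes and 0.127 over members, so the counts themselves do not show the pairing, and replicate ratios and block values rest on the design text. The replicate number as a block was an alternative. The other alternatives were DESeq2 1.42.0, library size alone, upper quartile scaling, all genes unfiltered, a minimum of 10 counts per library, limma 3.58.1 on log2(FPKM + 0.1) and log2(FPKM + 1) for genes of mean FPKM of at least 0.1, trends on length and GC content taken out per library (mgcv 1.9.3, basis size 8), and each library left out. The block with the trends taken out was added after the data were seen. The tests were checked on simulated counts. These were drawn without a trend on GC content or length and without a shared replicate, so the check does not cover those features.

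Coordinates, lengths, GC content and sequences came from GENCODE M21 on GRCm38, which held 52403 of 52550 identifiers, with the longest protein-coding transcript standing for each gene. For shared sequence, 31-base words of that transcript were looked up in all other annotated transcripts. Floors cover counting error only.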

Additional observations from a re-analysis of the deposited data

How the results depend on the processing

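E2f1 was higher and Orc6 lower by adjusted p in 12 of 14 alternatives each, Birc5 in 10, Gmnn in 9, Cdk4 and Mki67 in 8 and Gins1 in 6, and none of the 7 changed sign. Those 14 include the fits with 1 library left out, where passing turned on which group lost it. Ttk, at -0.017 here, was -0.73 without input 1 and 1.45 without input 2. The count of lower transcripts by adjusted p was 6 here, against 9.78% of all genes, and 9 with DESeq2, against 10.3%. It was 3 with library size alone (7.32% of all genes) and 2 without a filter on low counts (3.81%). On log2(FPKM + 0.1) it was 2 (9.13% of all genes) and on log2(FPKM + 1) it was 3 (9.19%). The count lower by the fold limit, 11 here, was 4 on log2(FPKM + 1), against 1055 of 14493 genes. The count higher by the fold limit, 1 here, was 4 with library size alone, against 2357 of 13632 genes. It was 2 without a filter, against 1560 of 23345 genes, and 2 on log2(FPKM + 0.1), against 1797 of 14493. Scaling by library size alone moved the median of all genes by 0.326 on the log2 scale, with 45.8% of all adjusted calls on the higher side against 26.2%, and turned the sign of 6 members, none above 0.32 in size here. With library size alone Birc5, Cdk4 and Gins1 had adjusted p of 0.0663, 0.0800 and 0.101 by edgeR. The member median minus that of all genes, -0.25 here, was -0.061 with DESeq2, -0.063 without a filter, -0.35 with at least 10 counts in every library, -0.16 and -0.066 on log2(FPKM + 0.1) and log2(FPKM + 1), -0.33 with trends on length and GC content taken out and -0.33 with the block as well. With the replicate block alone it was -0.27, and 9 members were lower against 6, with 721 genes higher and 1602 lower among all tested against 474 and 1333. Without a filter 292 genes were higher and 890 lower, and on log2(FPKM + 1) 386 passed the higher fold limit and 1055 the lower. With 1 library left out, members higher numbered 0 to 7 and lower 0 to 20 by adjusted p, 1 to 5 and 5 to 13 by the fold limit, and the median difference ran from -0.30 to -0.17. The lone library of a group was then assumed to vary like the other group. The zeros came without RIP 1 or RIP 2. The cause of these shifts was not tested. Counts of 15 to 56 in RIP limit the precision for Orc6, Gmnn and Gins1.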
